A study of Homo sapiens with 4 samples.

Results

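Androgens lower the transcripts of a set of genes in prostate cells while raising others, and 10 genes listed as androgen-repressed were followed here among the 17687 genes with a symbol on the array. They are TRIB1, AK5, TMEM45A, OCLN, BCHE, SERPINI1, CAMK2N1, OPRK1, DDC and MET, each read by 1 probe set. The genes were chosen from earlier results of these data, as lowered by dihydrotestosterone (DHT), or from what is known of androgen repression, so their DHT differences are a description and carry no test. RNA came from 22Rv1 cells, an established human prostate cancer line that grows without androgen. Cells received a control siRNA (siControl) or siRNA against OCT1 (siOCT1), and 48 h later ethanol vehicle or 10 nM DHT for 24 h, after 3 days in hormone-depleted medium with 2.5% charcoal-treated serum. The 4 groups were siControl with vehicle, siControl with DHT, siOCT1 with vehicle and siOCT1 with DHT, with 1 array each, so differences have no check by replicates and precision is limited by the number of arrays.

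Repression of genes by androgen involves corepressors and chromatin-modifying enzymes as well as competition with other activators. Genes repressed by androgen are of interest in castration-resistant disease because they can come back when androgen is withdrawn. OCT1 is a POU-domain transcription factor that binds an octamer DNA motif in gene promoters and enhancers. In bulk RNA, fewer cells with a transcript and less transcript per cell cannot be told apart.

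In siControl cells 5 of the 10 genes had lower signal with DHT, which describes the choice of the genes, since that choice used this contrast. TRIB1, AK5, TMEM45A, OCLN and SERPINI1 were at least 1.5-fold lower there, as were 12.6% of all genes above background. The first 4 of them were also lower in siOCT1 cells, where 10.3% of genes were. CAMK2N1 was bright on all 4 arrays and moved by less than 1.5-fold with DHT. OPRK1, DDC and MET lay below background on every array, and BCHE lay above it on the siOCT1 array with DHT alone. Background was the 95th percentile of 612 negative control probe sets on the same array, on the log2 scale 6.62 with vehicle and 6.99 with DHT in siControl cells, 7.39 with vehicle and 6.91 with DHT in siOCT1 cells. If only the brighter of 2 arrays exceeded background, its signal was set against the background of the other array and given as "at least N-fold". If neither did, no fold is given.

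**Figure D1:**
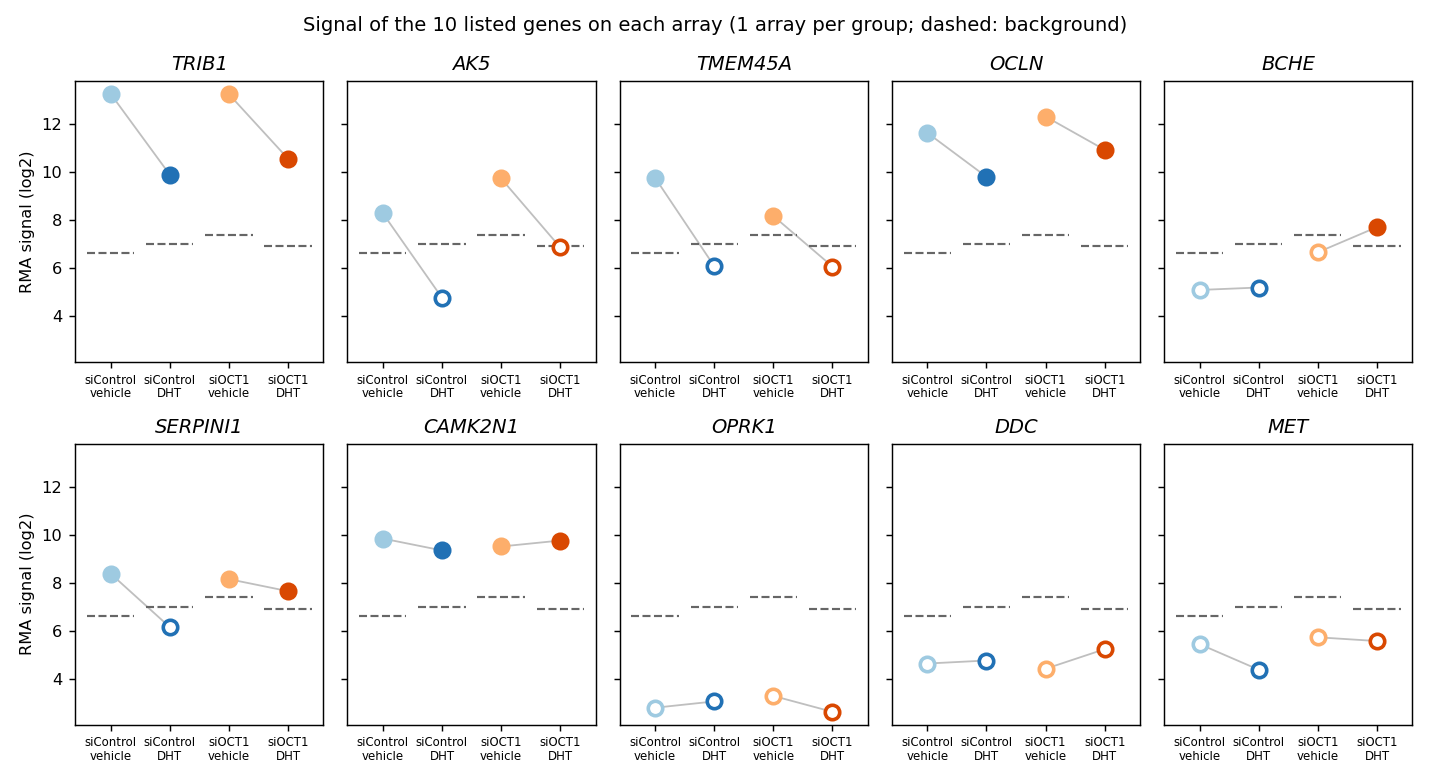
RMA signal (log2) of each of the 10 genes on the 4 arrays, 1 point per array, filled where it lies above the dashed background of its array and open where it lies below. TRIB1, AK5, TMEM45A and OCLN are lower on the DHT array of both pairs, and OPRK1, DDC and MET lie under the dashed lines throughout.

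The stretches just before the start sites are shown for 3 of the lowered genes and for BCHE, because these genes were followed together and differ in base composition there. Sequences are from RefSeq on GRCh38.p14, in which windows were found for 7 of the 10 genes. Each runs 5′ to 3′ over the 250 bases before the start site, at chr3:100492369-100492618 (TMEM45A, plus strand), chr5:69492297-69492546 (OCLN, plus strand), chr3:167735471-167735720 (SERPINI1, plus strand) and chr3:165837424-165837673 (BCHE, minus strand). Capitals mark matches on either strand to the GC box GGGCGG, the CCAAT box CCAAT and the TATA box TATAAA.
TMEM45A: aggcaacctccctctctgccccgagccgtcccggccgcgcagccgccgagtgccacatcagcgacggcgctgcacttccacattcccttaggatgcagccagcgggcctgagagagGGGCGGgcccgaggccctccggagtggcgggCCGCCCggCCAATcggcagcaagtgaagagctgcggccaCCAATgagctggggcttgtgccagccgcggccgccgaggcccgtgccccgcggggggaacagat
OCLN: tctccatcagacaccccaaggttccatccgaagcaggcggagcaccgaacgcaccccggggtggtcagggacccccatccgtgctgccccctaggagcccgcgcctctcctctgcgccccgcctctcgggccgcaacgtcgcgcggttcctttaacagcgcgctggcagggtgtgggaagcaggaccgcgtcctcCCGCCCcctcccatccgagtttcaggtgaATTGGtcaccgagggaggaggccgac
SERPINI1: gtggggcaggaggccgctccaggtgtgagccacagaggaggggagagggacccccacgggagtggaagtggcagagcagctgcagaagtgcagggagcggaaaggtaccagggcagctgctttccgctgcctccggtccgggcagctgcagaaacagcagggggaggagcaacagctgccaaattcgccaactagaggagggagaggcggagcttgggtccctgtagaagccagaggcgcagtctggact
BCHE: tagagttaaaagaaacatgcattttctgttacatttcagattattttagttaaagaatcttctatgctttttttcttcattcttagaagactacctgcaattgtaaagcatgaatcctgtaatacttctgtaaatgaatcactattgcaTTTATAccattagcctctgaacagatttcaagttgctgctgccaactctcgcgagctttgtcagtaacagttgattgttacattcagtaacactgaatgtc

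TMEM45A and OCLN began in CpG-rich sequence and BCHE in AT-rich sequence. The TMEM45A window held 26 CpG dinucleotides at 72.8% G and C, with GC boxes starting at -134 and -103 and CCAAT boxes at -95 and -64 counted back from the start site. The OCLN window held 24 CpG at 68.8% G and C, with a GC box at -55 and a CCAAT box at -26. The SERPINI1 window held 9 CpG and none of these motifs. The BCHE window held 2 CpG at 33.2% G and C, where 14.7% of 35116 such windows held fewer CpG and the median was 11, and a TATA box match on the opposite strand at -101. None of the 10 windows of the 7 genes held the octamer ATGCAAAT, found in 1.63% of all windows on either strand. None held the androgen receptor half-site AGAACA, found in 12.4% of all windows. GC boxes occurred in 5 of these 10 windows and in 42.6% of all windows, CCAAT boxes in 3 and in 32.01%, and TATA boxes in 1 and in 10.7%. A match or its absence in so short a stretch says nothing of distant sites.

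TRIB1 encodes a pseudokinase that brings substrates such as C/EBP alpha to the ubiquitin ligase COP1. Its signal was 13.26 in siControl with vehicle, 9.90 in siControl with DHT, 13.24 in siOCT1 with vehicle and 10.56 in siOCT1 with DHT. All 4 values stood well above background, and both DHT values lay below both vehicle values. The DHT difference was -3.36 in siControl, 10.3-fold, and -2.69 in siOCT1, 6.43-fold. Among 8164 genes above background on at least 1 array of the siControl pair, 0.049% had a lower difference, and among 7576 genes of the siOCT1 pair 0.053%. TRIB1 was thus near the bottom of both pairs, and these ranks describe a gene that was picked for being low.

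OCLN encodes occludin, a transmembrane protein of epithelial tight junctions. Its signal was 11.64 and 9.80 in siControl with vehicle and DHT, and 12.31 and 10.93 in siOCT1. As for TRIB1, every value was above background and the DHT values lay below both vehicle values. The DHT difference was -1.83 in siControl, 3.56-fold, and -1.38 in siOCT1, 2.61-fold.

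AK5 encodes an adenylate kinase, an enzyme that exchanges phosphate between AMP and ATP and that is best known from brain. Its signal was 8.28 in siControl with vehicle and 4.77 with DHT, then 9.73 and 6.86 in siOCT1. Both DHT values lay below background, in siOCT1 by 0.044, so the full size of the difference was not measured. It was at least 2.45-fold lower with DHT in siControl and at least 7.10-fold lower in siOCT1. The bound was larger in siOCT1 because the vehicle signal was higher there, not because the measured difference was, which was -3.52 in siControl and -2.87 in siOCT1.

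TMEM45A encodes a multi-pass membrane protein. Its signal was 9.76 and 6.08 in siControl with vehicle and DHT, and 8.17 and 6.06 in siOCT1. The DHT values were alike and both below background, while the vehicle values differed. The transcript was at least 6.82-fold lower with DHT in siControl and at least 2.40-fold lower in siOCT1.

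SERPINI1 encodes neuroserpin, a secreted inhibitor of tissue plasminogen activator. Its signal was 8.38 in siControl with vehicle, 6.16 with DHT, 8.15 in siOCT1 with vehicle and 7.65 with DHT. The siControl array with DHT was the only one of the 4 below background. SERPINI1 was at least 2.63-fold lower with DHT in siControl, and in siOCT1 the difference was -0.50, 1.42-fold and short of the size rule.

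CAMK2N1 encodes an endogenous inhibitor of calcium/calmodulin-dependent kinase II and is known as a gene that androgen represses in other prostate cancer lines. Its signal was 9.84 and 9.35 in siControl with vehicle and DHT, and 9.51 and 9.76 in siOCT1. The values spanned less than the size rule, and the DHT difference was -0.49 in siControl and 0.25 in siOCT1. In siControl 17.2% of genes above background had a lower difference and in siOCT1 68.0%, so CAMK2N1 did not stand among the lowered genes on these arrays.

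BCHE encodes butyrylcholinesterase, a secreted esterase of choline esters. Its signal was 5.09 and 5.19 in siControl, both below background, and 6.66 and 7.71 in siOCT1 with vehicle and DHT. The last value alone exceeded background, by 0.80, and was above 96.9% of the negative controls. BCHE was therefore at least 1.24-fold higher with DHT in siOCT1, against the direction of its label, and no fold is given in siControl.

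The other members could be bounded only from above. MET encodes the receptor tyrosine kinase for hepatocyte growth factor, and its signals of 5.45, 4.38, 5.73 and 5.57 for siControl with vehicle and DHT and siOCT1 with vehicle and DHT lay at -1.18 to -2.61 relative to background. DDC encodes aromatic L-amino acid decarboxylase, which makes dopamine and serotonin, and its signals were 4.64, 4.76, 4.42 and 5.24. OPRK1 encodes the kappa opioid receptor, and its signals of 2.80, 3.06, 3.29 and 2.63 lay below the median of the negative controls of each array, 3.33 to 3.42. The highest value of MET exceeded 87.9% of the negative controls on its array, that of DDC 84.5% and that of OPRK1 46.4%. A repression of any of these by DHT was not detectable here.

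Read together, 6 members were above background on at least 1 array of the siControl pair, and 5 of these had signal at least 1.5-fold lower with DHT, against 12.6% of all such genes, and none was higher, against 15.8%. In siOCT1 cells 4 of 7 members were lower, against 10.3%, and 1, BCHE, had a measured value past the rule upwards, against 13.9%, although its bound of 1.24-fold is short of it. The members' median difference was -2.80 in siControl and -1.38 in siOCT1, beside -0.03 and 0.04 over all genes of the same kind. The choice of the members used this contrast, so nothing is read from these shares. TRIB1, AK5, TMEM45A and OCLN passed the rule downwards under both siRNAs, as did 3.65% of the 7366 genes above background in both pairs.

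**Figure D2:**
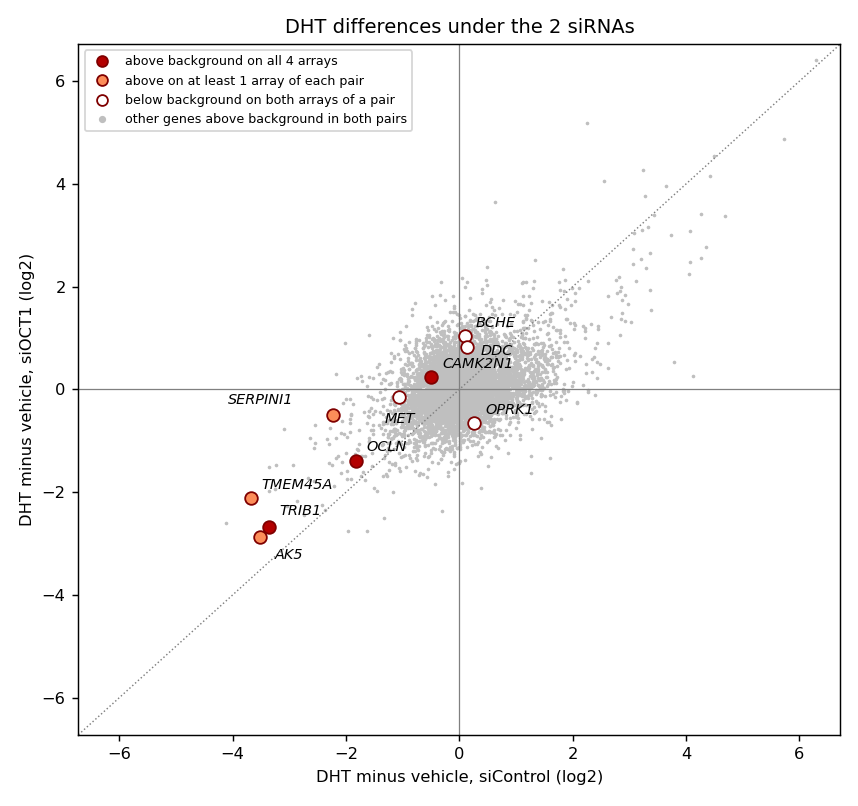
DHT minus vehicle differences (log2) in siControl cells on the x axis and in siOCT1 cells on the y axis, with the 10 genes labelled over the 7366 genes above background in both pairs (grey). TRIB1, AK5, TMEM45A and OCLN lie far into the lower left, SERPINI1 lies low on the x axis only, and open points are genes below background on both arrays of a pair.

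Signals near background were noisy. Of 48 negative controls above background on at least 1 array of the siControl pair, 20 were lower and 23 higher with DHT by 1.5-fold, and of 49 in the siOCT1 pair 23 and 21. Their median absolute difference was 2.25 and 2.20. These controls were picked for being high on at least 1 array of the pair, which favours large differences. Over all negative controls the SD of the difference was 1.33 in siControl and 1.47 in siOCT1. AK5, TMEM45A, SERPINI1 and BCHE each rest on at least 1 array below background, whereas TRIB1 and OCLN do not. Genes with a mean signal of 9 to 11, the range of CAMK2N1, had a 5th percentile of -0.82 for the siControl difference and -0.75 for the siOCT1 difference, and those of 11 to 13, where TRIB1 lay, of -0.67 and -0.64.

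The DHT response was more positive in siOCT1 than in siControl for TRIB1 by 0.68, OCLN by 0.45 and CAMK2N1 by 0.74, with all values above background. SERPINI1 changed the same way, by 1.73 on the measured values, with its siControl value with DHT below background. For AK5 and TMEM45A, below background with DHT under both siRNAs, the direction of the change is not known. Their measured changes were 0.65 and 1.57, but with values raised to the background of each array the AK5 response was -1.29 in siControl and -2.83 in siOCT1, the opposite order. On measured values 5 of 6 members, AK5 and TMEM45A included, were more positive by the size rule, against 16.7% of genes (16.9% were more negative). The same lean was seen in genes picked only for being lower with DHT in siControl, of which 733 of 830 (88.3%) had a less negative response in siOCT1, with a median change of 0.61. Genes picked for being lower in siOCT1 showed the mirror image, with 547 of 719 (76.1%) less negative in siControl. The change is 1 value per gene with no test. With arrays centred on the positive controls 2 of 6 members, TMEM45A and SERPINI1, passed the size rule, against 9.63% of genes.

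The comparison of siOCT1 with siControl was not itself used to choose the genes. The siControl array with vehicle enters both the vehicle difference and the siControl DHT response that the choice used, so the vehicle shares are not independent of the choice. The OCT1 transcript was not analysed here, and siOCT1 stands for the label. In vehicle AK5 was higher in siOCT1 by 1.45, 2.74-fold, and OCLN by 0.68, 1.60-fold, while TMEM45A had a difference of -1.59, 3.01-fold lower. The differences of TRIB1, SERPINI1 and CAMK2N1 were -0.02, -0.23 and -0.33. Thus 2 of 6 members were higher and 1 lower by the size rule, against 21.2% and 30% of genes, and the members' median of -0.12 was close to the -0.11 of all genes.

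With DHT present the picture leaned upwards. OCLN was higher in siOCT1 by 1.12, 2.18-fold, and TRIB1 by 0.66, 1.58-fold, both with all values above background. BCHE was at least 1.64-fold and SERPINI1 at least 1.58-fold higher, each against a siControl value below background. CAMK2N1 had a difference of 0.41, and AK5 and TMEM45A lay below background on both arrays. In all 4 of 5 members were higher and none lower, against 18.9% and 26.4% of genes, with a median of 1.12 beside -0.08 for all genes. BCHE and SERPINI1 entered this count only through the siOCT1 array where they were high. Once low signals were set to the highest of the 4 backgrounds, 2 members were higher, TRIB1 and OCLN, against 15.6% of genes. The siControl array with DHT enters both this difference and the siControl DHT response that the choice of the members used, so the share is not independent of the choice.

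**Figure D3:**
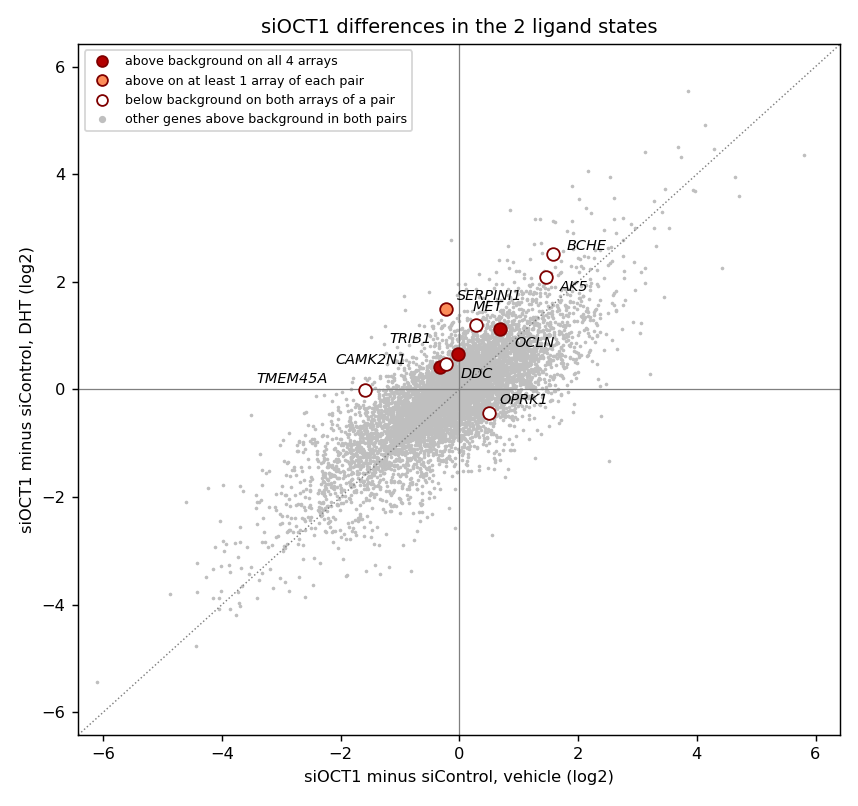
siOCT1 minus siControl differences (log2) with vehicle on the x axis and with DHT on the y axis, with the 10 genes labelled over other genes above background in both pairs (grey). OCLN is the member that is above background on all arrays and past 1.5-fold in both ligand states, and TMEM45A is the member farthest to the left.

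An additive model of siRNA and ligand, fitted with limma over 8843 genes, tested the siRNA effect. Of the 7 members bright enough to enter, 3 were called higher in siOCT1 and none lower, where 9.1% and 15.3% of genes tested were. OCLN rose by 0.90 ± 0.25 (SE, 2 arrays per siRNA) with a limma adjusted p of 0.0422, and AK5 by 1.77 ± 0.32 with 0.0113, both of its DHT values being below background. BCHE was called as well (limma adjusted p = 0.0159), but it entered the fit only through its siOCT1 signals and lay below background on 3 of the 4 arrays, so the call is not counted as support and the size was not measured. TRIB1 had a coefficient of 0.32 ± 0.26 (adjusted p = 0.396 by limma), TMEM45A of -0.80 ± 0.42 (0.199), SERPINI1 of 0.63 ± 0.44 (0.324) and CAMK2N1 of 0.04 ± 0.29 (0.933). The fit has 1 residual degree of freedom, which holds the siRNA-by-ligand difference and no spread of repeat cultures. With values raised to the background of their array OCLN was the 1 member called, where 28.8% of genes tested were called in either direction. With values raised to the highest of the 4 backgrounds limma called no member and no gene, with 2066 genes at an unadjusted p under 0.05.

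The genes closest to the 3 members that were above background on all arrays were sought among 6458 genes by the root mean square distance between profiles over the 4 arrays, each centred on its mean. Closest to TRIB1 were GATA2, a zinc finger transcription factor of luminal cells, at a distance of 0.33, and MUC13, a transmembrane mucin, at 0.38. OCLN was matched by PON1, the lipolactonase paraoxonase, at 0.083 and by ELAPOR1, an endosome and lysosome protein, at 0.10. PON1 had DHT differences of -1.81 and -1.16, ELAPOR1 of -1.85 and -1.26, MUC13 of -2.86 and -2.18 and GATA2 of -3.26 and -1.93. CAMK2N1 was matched by NDUFAF6, a complex I assembly factor, at 0.017 and by FUBP3 at 0.029. A profile of 4 values is easily matched, and the distances are a description.

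Relatives and partners of each member were listed for comparison, and counts are of genes above background on at least 1 array of a pair. Of 12 tight junction genes, 4 were lower and 1 higher with DHT in siControl, where 12.6% and 15.8% of all genes were, and of 9 in siOCT1 2 were lower and none higher, where 10.3% and 13.9% were, while limma called none for DHT (0.679% of all genes tested rose with DHT and 0.305% fell). The claudin CLDN4 had differences of -1.30 and -0.53. The cytoplasmic plaque gene CGN, cingulin, had differences of -1.03 (its DHT value just below background, a bound of 1.93-fold lower) and -0.50. Both missed the rule in siOCT1. The 2 genes lower in siOCT1 were others, CRB3 at -0.64 and PATJ at -0.71, which stood at -0.02 and -0.25 in siControl. The scaffold TJP1 stood at -0.04 and -0.46, and MARVELD2, tricellulin, the relative of occludin, at -0.22 and -0.19. CLDN3 and TJP3 were among the 4 genes counted as lower in siControl. Their vehicle signals of 6.78 and 6.63 lay under the background of 6.99 on the DHT array, so no lowering was measured for them. Both were below background in siOCT1. For siRNA limma called PATJ, which rose by 1.67 and 1.21, and CLDN7, which fell by 0.92 and 0.89. OCLN, picked for being lowered, had a more negative DHT difference than each of these genes above background under either siRNA.

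TMEM45B, the relative of TMEM45A, was lower as well, with signals of 10.04, 8.68, 10.35 and 9.26 for siControl with vehicle and DHT and siOCT1 with vehicle and DHT. All values were above background and the differences were -1.36 and -1.09, with a limma adjusted p of 0.0948 for DHT. PDCD10, which encodes an adaptor of the cerebral cavernous malformation complex, lies beside SERPINI1 on the opposite strand of chromosome 3. PDCD10 had differences of 0.65 and 0.55, opposite in sign to those of its neighbour, with signals of 12.44, 13.09, 12.24 and 12.78. The list around SERPINI1 held 11 genes analysed, namely other serpins, plasminogen activator genes and PDCD10. Of these 2 were above background on any array, PDCD10 and PLAT, and no serpin of the list was. PLAT, the tissue plasminogen activator that neuroserpin inhibits, reached 6.95 in siOCT1 with DHT, against a background of 6.91.

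No relative of AK5 above background passed the size rule downwards with DHT. AK4, a mitochondrial adenylate kinase, rose with DHT by 1.61 and 1.496 (limma adjusted p = 0.0483), and AK3 stood at 0.53 and 0.49. AK1 stood at -0.14 and 0.25. Of 4 genes of the list above background none was lower by the size rule, where 12.6% of all genes were in siControl and 10.3% in siOCT1. With 4 genes nothing is read from this count. AK4 fell in siOCT1, with differences of -2.002 in vehicle and -2.12 in DHT (limma adjusted p = 0.00380). AK3 rose in siOCT1 by 1.09 and 1.051 (limma adjusted p = 0.0225) and CMPK1, a UMP and CMP kinase, by 2.16 and 1.36 (limma adjusted p = 0.00891), as AK5 did.

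Around CAMK2N1, the kinase genes CAMK2D and CAMK2G had DHT differences of -1.01 and -0.96 in siControl and -0.35 and -0.75 in siOCT1. CAMKK2, an upstream kinase known as an androgen-induced gene, stood at 0.77 and -0.13. None of the 4 tested was called by limma for DHT, and CAMK2D and CAMKK2 rose in siOCT1, with adjusted p of 0.0205 and 0.0478 by limma. Around TRIB1, TRIB3 stood at -0.50 and -0.18, COP1 at 0.33 and -0.38 and the kinase MAP2K1 at -0.34 and -0.15. None passed the size rule with DHT. Of all genes 12.6% were lower and 15.8% higher in siControl, and 10.3% and 13.9% in siOCT1.

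**Figure D4:**
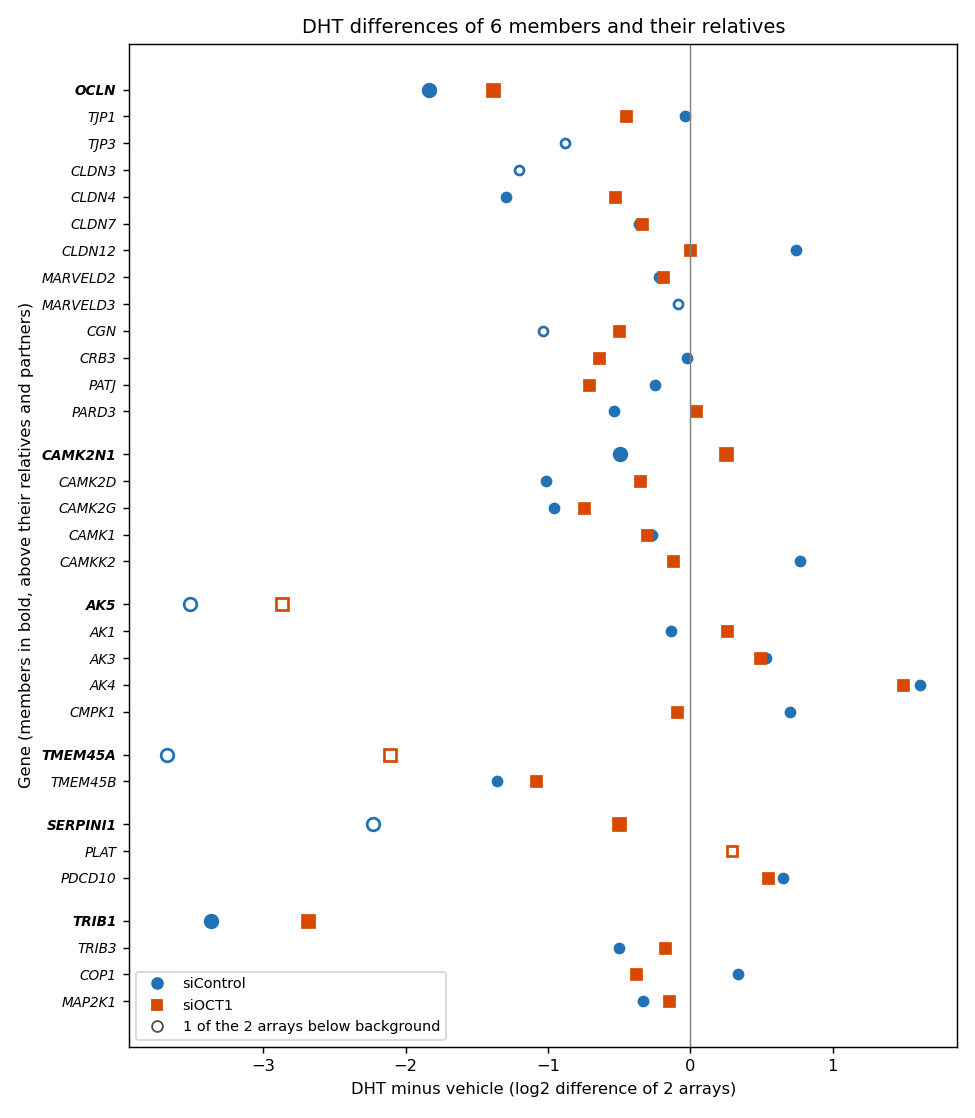
DHT minus vehicle differences (log2) in siControl (circles) and siOCT1 (squares) for 6 members in bold and, under each, the relatives and partners above background on at least 1 array of the pair; open symbols have 1 array below background. AK4 and PDCD10 lie to the right of 0 while AK5 and SERPINI1 lie to the left, and TMEM45B lies left of 0 with TMEM45A.

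The surroundings of the undetected members were examined in the same way. Of 14 MET pathway genes 11 were above background on at least 1 array, and HGF, the ligand, was not. In siControl 3 of 11 were lower with DHT, where 12.6% of all genes were, MST1R (the related receptor RON, at least 1.13-fold with a measured difference of -0.85), the adaptor GRB2 at -0.67 and the protease inhibitor SPINT2 at -0.72. In siOCT1 2 of 9 were lower, where 10.3% were, GAB1 at -0.91 and the ubiquitin ligase CBL at -0.79. None was called by limma for DHT. GAB1, a docking protein gene, rose in siOCT1 by 2.64 and 1.83 (limma adjusted p = 0.00459) and the exchange factor SOS1 by 0.87 and 1.04. The phosphatase PTPN11 fell by 1.13 in both ligand states. Limma also called STAT3 lower, but it lay below background on 3 arrays. Its signal of 6.91 in siControl with vehicle was under the background of 7.39 in siOCT1 with vehicle, so no fall was measured.

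Of 11 opioid system genes 4 were above background, all of them G protein alpha subunits, and no opioid receptor or peptide precursor was. GNAI1 had DHT differences of 1.31 and 0.36 and GNAI2 of -0.08 and -0.45, while GNAZ was at least 2.60-fold lower with DHT in siControl and below background in siOCT1. Of 14 aromatic monoamine genes 5 were above background, and the rate-limiting enzymes TH, TPH1 and TPH2 were not. MAOA, which oxidises monoamines, rose with DHT, at least 6.001-fold under siControl and 1.70-fold under siOCT1 (limma adjusted p = 0.00997). SPR, sepiapterin reductase, stood at -1.12 and -1.05, and GCH1 was at least 1.17-fold lower in siControl. Among 4 esterase genes, ACHE included, none was above background on any array.

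Other genes known to respond to androgen were listed with earlier results of these arrays known, so their counts are a description. Of 12 androgen-induced genes above background in siControl 12 were higher with DHT by 1.5-fold, beside 15.8% of all genes, and of 9 in siOCT1 7 were, beside 13.9%. In the limma fit 7 of 12 rose with DHT, beside 0.679% of all genes tested. SLC45A3 was at least 32.1-fold and 28.2-fold higher, DBI rose by 3.64 and 3.95 and INPP4B was at least 7.21-fold and 4.49-fold higher. Of another 15 genes listed as lowered by androgen, 5 of 5 above background in siControl and 8 of 8 in siOCT1 were lower, beside 12.6% and 10.3% of all genes. By limma 4 of 9 tested fell with DHT, beside 0.305% of all genes tested, but several genes were listed because these arrays had shown it. IGFBP3 had differences of -4.13 and -2.60 and ST3GAL1 of -3.04 and -2.27, and ACP3 was at least 1.33-fold and 2.32-fold lower. By the size rule 7 of 8 of these genes were higher in siOCT1 in vehicle and 6 of 6 with DHT, beside 21.2% and 18.9% of all genes. UGT2B15, UGT2B17 and AKR1C3 entered the vehicle count only through the siOCT1 array where they were high. UGT2B15 and AKR1C3 entered the DHT count in the same way. The siControl arrays also enter the DHT responses known when the list was made, so nothing is read from these shares. Limma called 6 of 9 higher in siOCT1 and none lower, beside 9.1% and 15.3% of all genes tested. Of the 6, UGT2B15, UGT2B17 and AKR1C3 had no siControl signal above background and entered the fit only through siOCT1. The fit uses the same siControl arrays, so this count is a description as well. IGFBP3 rose in siOCT1 by 2.01 and 3.53 (limma adjusted p = 0.00435) and ST3GAL1 by 0.89 and 1.66 (limma adjusted p = 0.0212), with all values above background.

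Among partner factors and corepressors at androgen-regulated genes 7 genes were analysed. FOXA1, a pioneer factor of luminal cells, had signals of 14.06 to 14.50, and no gene of the list was called by limma for DHT or siRNA. HDAC1 stood at -0.50 and -0.38, HDAC2 at 0.55 and 0.29 and SIN3A, a corepressor scaffold, at 0.61 and 0.09.

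The labelled line was checked on its markers. All 6 luminal prostate markers analysed, KRT8, KRT18, EPCAM, HOXB13, FOLH1 and CDH1, were above background on every array. Under both siRNAs 3 of the 6 were lower and 2 higher with DHT by the size rule. Beside this, 12.6% of all genes were lower and 15.8% higher in siControl, and 10.3% and 13.9% in siOCT1. KRT8 was higher by 1.85 and 0.92 and KRT18 by 1.45 and 0.76. FOLH1 fell by 2.06 and 1.42 (limma adjusted p = 0.0234), HOXB13 stood at -0.67 and -0.98 and CDH1 at -0.85 and -0.72. FOLH1 is also among the genes listed as lowered by androgen with earlier results of these arrays known, so its p-value is a description. Of 10 basal, stromal, immune and neuroendocrine markers 3 were above background on any array. SYP, synaptophysin, stood at 7.56 to 8.35 with DHT differences of -0.41 and -0.40, COL1A2 barely exceeded background in siControl with vehicle, and ACTA2, above background in siOCT1 alone, was at least 2.19-fold higher there in vehicle and 1.30-fold with DHT. The part of these markers in the members' differences was not tested. KRT5, KRT14, COL1A1, PTPRC, CD68, CHGA and ENO2 lay below background on all 4 arrays.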

How the data were processed

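The authors deposited log2 signals made by RMA with Affymetrix Expression Console, as the submitters' processing notes list. RMA corrects background, equalises the distributions of the arrays and combines probes, which hides any global shift of RNA. That the scale is log2 was inferred from the values, of which 327 to 379 per array lie above 16, beyond a 16-bit scanner, so folds hold on the deposited scale. No genome build of the array processing was used.

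The platform table named 17687 genes of 24351 probe sets, and for 20 genes with several probe sets the brightest on average was kept. Groups came from the labels. The members and the 15 gene lists were chosen with earlier results of these data known. Named genes were the members, the 2 closest profiles of each member bright on all arrays, and up to 3 genes per list with the largest mean DHT difference; other list genes were named after their values were seen. Counts use a 1.5-fold rule on genes above background on at least 1 array of a pair.

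The additive model used limma 3.58.1 in R 4.3.3 (lmFit, eBayes with intensity trend), Benjamini-Hochberg adjusted at 0.05 over 8843 genes whose highest value exceeded 6.51, the median over all genes. Its prior had 5.85 degrees of freedom. The model was tested on simulated data for the siRNA comparison over 8843 genes, where 42.5% of 2-fold and 100% of 8-fold changes came back. False calls numbered 5 and 12. The simulated noise was the same at every signal level, with no DHT effect and no siRNA-by-ligand difference. Recovery for dim members on the real arrays is therefore not known. Alternatives were a 2-fold rule, positive control and loess centring, 32 added before the logarithm, 3 ways of raising low values, and other limma settings. Other steps ran in Python 3.11.15 (pandas 2.3.3, statsmodels 0.14.6).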

Additional observations from a re-analysis of the deposited data

Results flagged for a closer look

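SERPINI1 and TRIB1 had siRNA differences of opposite sign in the 2 ligand states on the deposited values. SERPINI1 stood at -0.23 in vehicle and 1.496 with DHT in siOCT1 minus siControl, the latter against a siControl value below background. TRIB1 stood at -0.02 and 0.66, with the vehicle value next to 0, and the vehicle value turned to 0.20 with positive control centring and 0.15 with loess centring, the same sign as with DHT. Each direction rests on 1 pair of arrays, and the difference between ligand states was not tested.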

How the results depend on the processing

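The counts of members lower with DHT stayed at 5 in siControl and 4 in siOCT1 under the 2-fold rule, positive control centring, loess centring, 32 added before the logarithm, and values raised to the array's own or the highest background. Across these settings the share of all genes ran from 3.93% to 12.1% in siControl and from 3.02% to 12.4% in siOCT1. With the 99th percentile of the negative controls as background, TRIB1 and OCLN were left in each, a count of 2 and 2, beside 18.0% and 6.75% of genes. Members higher in siOCT1 in vehicle numbered 1 under the 2-fold rule and 1 with the 99th percentile, beside 11.1% and 16.8% of genes. With DHT they numbered 2 with the highest background and 2 with the 99th percentile, beside 15.6% and 16.4%. Members with a more positive DHT response numbered 2 under the 2-fold rule, 2 with positive control centring, 3 with the highest background and 2 with the 99th percentile. The shares of all genes under these settings were 5.46%, 9.63%, 14.0% and 17.1%. Under the 99th percentile AK5 turned to -0.067 for siOCT1 in vehicle and TMEM45A to 0.0097 for DHT in siOCT1, since values below it are raised to background levels that differ between arrays. The limma calls for siRNA fell from 3 to 0 with the highest background and to 1 with each array's own background, an alternative chosen after seeing the data. The shares of all genes called in either direction were 24.4%, 0% and 28.8%. OCLN was also lost without the intensity trend (adjusted p = 0.0667) and without the filter on dim genes (adjusted p = 0.0673). Single arrays leave no replicate to omit. No paired analysis was possible because each group holds 1 array and the labels give no replicate numbers.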
